A study of Mus musculus with 102 samples.

Results

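The genes described here encode 34 subunits of the receptors for glutamate and GABA in the mouse brain. They were taken by gene symbol. All 34 were found among the 51810 rows of the brain table: 4 AMPA, 6 NMDA, 5 kainate, 1 delta and 6 metabotropic glutamate receptor genes, 10 GABA-A subunit genes and 2 GABA-B subunit genes. The set does not hold every subunit of these receptors. Of the 34, 33 reached a normalized read count of 10 in at least 5 samples and were tested with the 15546 genes that did so. Gabra6 did not.

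The brains came from male mice labelled WT, with BL6J in their titles, aged 3, 5, 8, 14, 20 or 26 months, and the labels name no treatment for them. The labels give the tissue as brain, without naming a region. There were 45 libraries, and in 2 pairs, at 5 and at 8 months, the counts of the libraries differed by less than sampling noise, so the mean of each pair stands for 1 sample. This left 43 samples, with 7, 8, 7, 9, 7 and 5 in order of age. Values are normalized read counts, that is reads per gene divided by 1 size factor per library, given as mean ± SD over n samples. The groups show how each subunit's RNA level compared between ages.

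Glutamate is the main excitatory transmitter of the brain and GABA the main inhibitory one. AMPA, NMDA and kainate receptors are tetrameric cation channels opened by glutamate, and GABA-A receptors are pentameric chloride channels opened by GABA. Metabotropic glutamate receptors and GABA-B receptors instead signal through G proteins and adjust transmitter release and postsynaptic excitability. Subunit composition sets the kinetics, ion permeability and drug sensitivity of the channels, and it differs between brain regions and between cell types.

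Libraries held 4072076 to 13655235 reads in genes. Markers of neurons, astrocytes, oligodendrocytes and microglia were present in brain of every age, and the excitatory transporter gene Slc17a7 stood at 2123 to 6349 and the GABA-synthesis gene Gad1 at 2725 to 4738. The cerebellar neuron markers were mixed. Fat2 averaged 4.03, Cbln3 5.88 and Barhl1 6.21, while En2 averaged 25.1, Car8 89.4, Zic2 248 and Zic1 705. The other 3 of the 10, Cbln1, Neurod1 and Pcp2, were listed at 0 in every sample. So were Gfap of astrocytes, Nefl of neurons and P2ry12 of microglia, and a gene listed at 0 here is therefore not read as low expression. Gabra6, whose subunit is known from cerebellar granule cells, ranged from 0 to 12.2 with a mean of 1.08. In bulk tissue, fewer cells of a type and less RNA per cell cannot be told apart.

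The 34 genes together made up 0.906 ± 0.0422% of all normalized counts (SD, n = 43). To compare genes, each value was divided by the length of the gene's principal transcript in GENCODE M21, and the order was checked with the length of all its exons. Gabbr1, Gria2, Gria1 and Gria3 stood highest on this per-kilobase scale. With the length of all exons Gria1 stood above Gabbr1, and Gria3 fell below Gabbr2 and Grm5. Gria2, whose subunit keeps calcium out of most AMPA receptors, stood at 1169.7 ± 62.6 per kb, and Gria1 at 1112 ± 98.3 (n = 43 each). Those levels did not differ beyond their spread, and their order turned with the length of all exons (780.2 against 993 per kb). Gria3 followed at 778 ± 56.8 and Gria4 was lowest of the family at 418 ± 34.9 by either length. Gabbr1, whose product binds GABA, stood at 1437 ± 176 per kb, above Gabbr2, whose product carries the complex to the membrane and couples it to G proteins, at 525.8 ± 52.1.

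NMDA receptor genes were lower per kb. Grin1, the obligatory subunit, stood at 266 ± 39.0, Grin2b at 231 ± 31.9 and Grin2a at 183 ± 19.8 per kb. With the length of all exons Grin2b led at 224 and Grin1 fell to 116, so this order was not settled by the data. Grin2d was lowest at 17.4 ± 2.93, and Grin2c and Grin3a stood at 37.0 ± 5.98 and 46.5 ± 5.29. In the kainate family the order was Grik5 at 198 ± 18.0, Grik2 at 163 ± 15.3, Grik1 at 142 ± 17.3, Grik3 at 66.0 ± 7.28 and Grik4 at 52.4 ± 5.81, and it was the same by either length. Grid1, a delta receptor gene, stood at 73.4 ± 6.28.

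Among the metabotropic genes, Grm5, a receptor that couples to calcium release and sits largely on the postsynaptic side, led at 537 ± 70.3 per kb. Grm7, a presynaptic receptor of low glutamate affinity, stood at 504 ± 74.5, within the spread of Grm5. Grm3 followed at 191 ± 24.2 and Grm4 at 88.6 ± 16.7. Grm8 at 74.5 ± 9.44 and Grm2 at 40.5 ± 6.01 were lowest and changed places with the length of all exons. In the GABA-A family Gabrb2 led at 477 ± 65.0, then Gabra4 at 415 ± 39.0 and Gabra3 at 269.8 ± 21.8. Gabrg3 at 59.0 ± 10.4, Gabra5 at 25.6 ± 6.91 and Gabra6 at 0.444 ± 0.889 were lowest by either length.

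**Figure D1:**
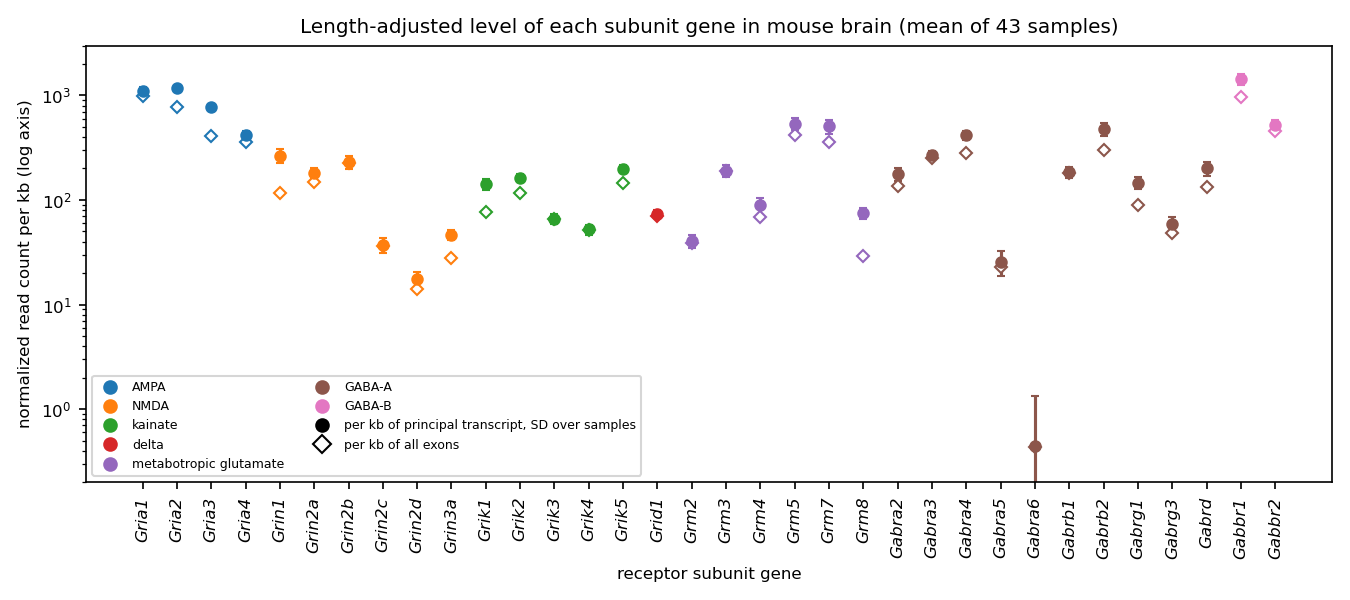
Mean normalized read count per kb of each subunit gene over 43 brain samples on a log axis, coloured by family; circles use the principal transcript with SD bars over samples, diamonds the length of all exons. Gabbr1, Gria2 and Gria1 were highest, and Gabra6, at 0.444 per kb with an SD bar that leaves the axis, stood below every other member.

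Genes lying inside other genes were often listed at 0. Of 1412 protein-coding genes whose exons lie wholly inside the spans of other genes, 82.2% were listed at 0 in every brain sample. Of 14012 genes with exons outside all other gene spans, 11.8% were. The share of a member's exon bases lying in another gene's span was 87.7% for Gabra5, 40.8% for Grin2d, 28.5% for Grin1, 9.60% for Grm2, 7.32% for Grin2b and 5.71% for Grm7. For these genes, the reads listed may be fewer than the gene's true share, and comparisons of their level with other genes are uncertain. Comparisons between ages use the same counting in all samples.

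No subunit gene passed the test at any age. In limma with Benjamini-Hochberg adjustment over all tested genes, 0 of 33 members were called at 26 against 3 months, where 0.663% of all tested genes were. The smallest adjusted p in this limma comparison was 0.233, for Grm2. Of the members 2 had an unadjusted p under 0.05 (6.06%), against 10.1% of all tested genes. edgeR and DESeq2 on the recovered reads also called 0 members, with 3 and 2 at an unadjusted p under 0.05. The shares of all tested genes given here are those of limma alone. Estimates ran from -0.34 to 0.25 on the log2 scale, 17 above 0 and 16 below. Their median size was 0.07 against 0.12 over all tested genes, which were not matched to the members in read count.

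The intervals were narrow enough to bound the differences. The 95% interval of the 26 against 3 month difference lay within 0.5 of 0 on the log2 scale for 31 of 33 members, and for 57.8% of all tested genes. It lay within 1, a doubling, for all 33 members tested and for 88.8% of all tested genes. The exceptions at 0.5 were Grm2 and Grin2c. No member separated 3 from 26 months without overlap (0 of 33), and 1.05% of all tested genes did. Samples of 1 age also differed little: the within-age SD of the members had a median of 0.19 on the log2 scale. It ran from 0.08 for Gria2 to 0.34 for Gabra5, and 30 of 33 members lay under the median of all tested genes, 0.26. All tested genes were not matched to the members in read count, on which spread and interval width depend. The part of read count in these comparisons was not tested, so they are not read as a trait of receptor genes.

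The other comparisons of ages gave the same count. limma called 0 of 33 members at 5, 8 and 14 against 3 months, where 0% of all genes passed. At an unadjusted p under 0.05 stood 0 members at 5 months (3.18% of all genes), 0 at 8 months (3.59%) and 2 at 14 months (4.25%). At 20 against 3 months limma called 0 of 33 (0.174% of all genes), with 3 members at an unadjusted p under 0.05 (9.37% of all genes). It called 0 at 26 against 14 months (0.167%), 0 at 26 against 20 (0%) and 0 at 20 against 14 (0.00643%). In these comparisons 1, 2 and 2 members had an unadjusted p under 0.05, where 6.61%, 3.89% and 4.16% of all genes did. The limma F-test over the 6 ages called 0 of 33 members and 0.482% of all genes, with 1 member at an unadjusted p under 0.05 (6.02% of all genes). The linear trend over age called 0 of 33 against 1.58% of all genes, with 2 members at an unadjusted p under 0.05 (6.06%) and 14% of all genes. edgeR and DESeq2 called 0 members in each of these comparisons too, with 0 to 2 at an unadjusted p under 0.05. The shares of all genes above are again those of limma alone.

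**Figure D2:**
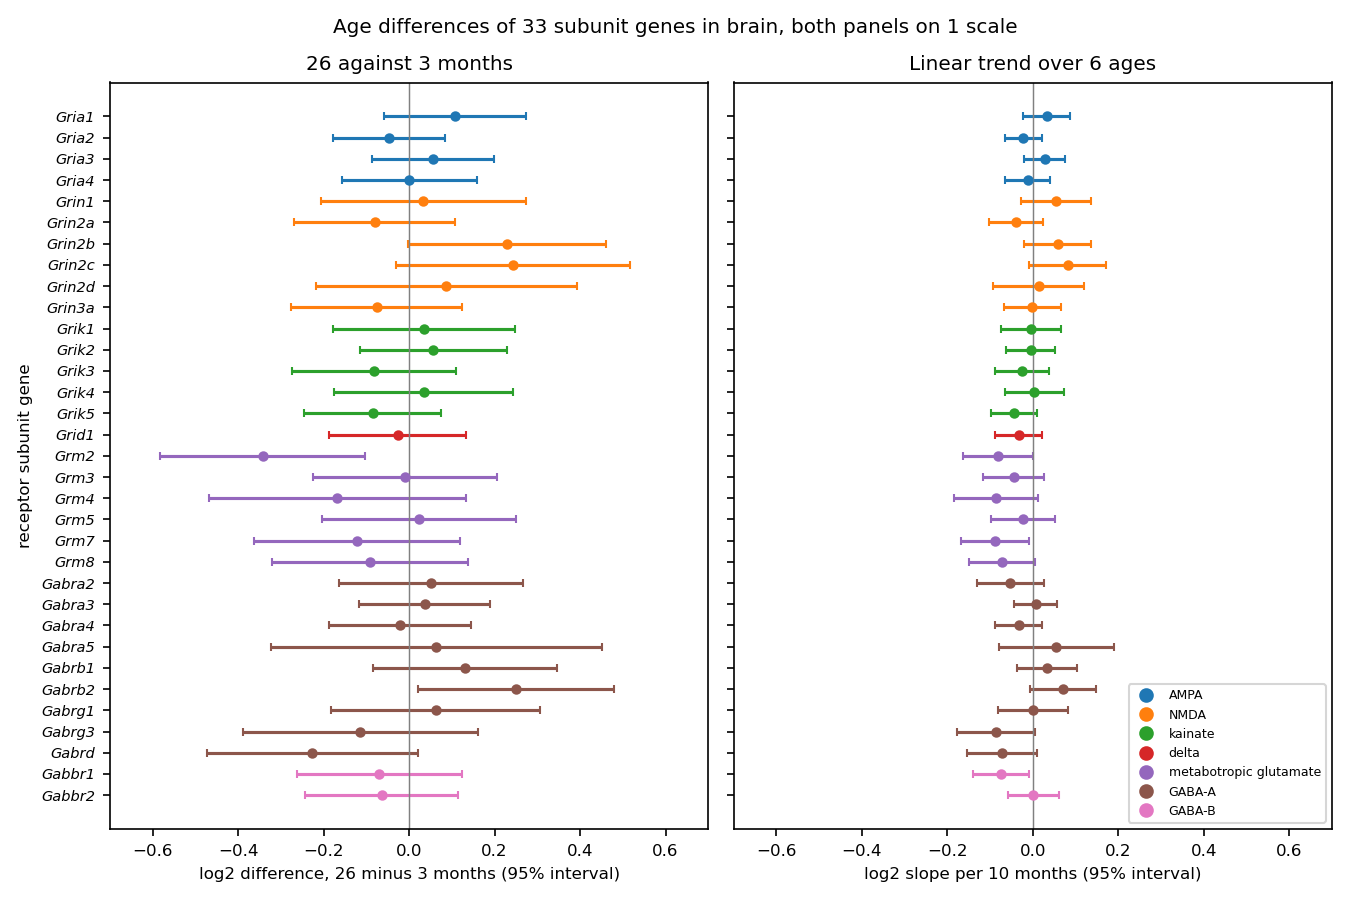
Log2 difference of 26 minus 3 months (left, 5 and 7 samples) and log2 slope per 10 months over 43 samples (right) for the 33 tested subunit genes, coloured by family, with 95% limma intervals. Points lie from -0.34 for Grm2 to 0.25 for Gabrb2 on the left and within 0.09 of 0 on the right.

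Among the AMPA genes, estimates at 26 against 3 months ran from -0.05 to 0.11 on the log2 scale. Gria2 averaged 12265 ± 688, 12369 ± 771, 12151 ± 630.1, 12012 ± 791, 12048 ± 496 and 11863 ± 426 in order of age. Its samples ran from 11313 through a median of 12627 to 12999.6 at 3 months, and at 26 months they were 11547, 11540.3, 12458, 11594 and 12174. Every 26-month sample lay inside the range of the 3-month samples. Gria4, whose subunit gives fast channels, averaged 2281, 2236, 2258, 2215, 2166 and 2284 from the youngest to the oldest age (SD 137 to 283).

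Among the NMDA genes, estimates ran from -0.08 to 0.24. Grin2b, which encodes a subunit of slow decay that dominates early in life, averaged 5258 ± 861, 5755, 5367, 5394, 5670.2 and 6120.0 ± 682 in order of age, with an SD of 649 to 875. Its 3-month samples ran from 3958 (median 5072) to 6614, and its 26-month samples were 7032, 5812, 6583, 5313 and 5861, so the 2 ages overlapped. The difference was 0.23 (95% interval -0.00 to 0.46, limma adjusted p = 0.4998). Grin2a, the subunit that gains on Grin2b as synapses mature, stood at 2798 ± 166 at 3 months, 2513 ± 369 at 14 and 2647 ± 168 at 26. The ratio of Grin2b to Grin2a within a sample was 1.87 ± 0.232 at 3 months and 2.31 ± 0.197 at 26 months, with ranges of 1.504 to 2.22 and 2.15 to 2.64 that overlapped. No test was run on this ratio.

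Grin1 averaged 1074, 1138, 1042, 1158, 1244 and 1093 in order of age (SD 102 to 228), with 762 to 1339 at 3 and 877 to 1234 at 26 months. Grin2c, known from cerebellar granule cells and from astrocytes, averaged 174, 175, 181, 174, 185 and 205 (SD 22.9 to 37.5), and differed by 0.24 (95% interval -0.03 to 0.52) between 26 and 3 months. At 26 months its samples were 222, 217, 152, 215 and 219, and the 3-month samples spread from 147 to 246 around them. Grin2d, found mostly in interneurons and the brainstem, averaged 101, 97.6, 88.6, 86.4, 94.1 and 106 (SD 4.76 to 21.8). Its range was 43.7 to 116 at 14 months and 94.8 to 113 at 26. The difference of 26 against 14 months was 0.33 ± 0.145 (SE, limma adjusted p = 0.659). Grin2d rested on few reads, 24 to 264 per sample.

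Kainate and delta receptor genes gave estimates from -0.09 to 0.06 at 26 against 3 months. Grik5, a high-affinity subunit that joins others to form a channel, averaged 758 ± 61.1, 785 ± 77.8, 748 ± 65.6, 705 ± 49.1, 746 ± 66.3 and 716 ± 76.9 in order of age. Grik4 averaged 310.4, 313, 308, 296, 310.0 and 318 (SD 28.6 to 46.3). Grid1, whose product binds cerebellins at synapses, averaged 417, 424, 433, 435, 393 and 409.9 (SD 23.2 to 43.7), and its 3- and 26-month ranges of 376 to 450.2 and 356 to 449.9 almost coincided. Grid1 at 20 against 14 months differed by -0.15 (limma unadjusted p = 0.0387, adjusted p = 1.00).

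Among the metabotropic genes, 5 of 6 estimates were below 0 at 26 against 3 months and all 6 slopes with age were below 0, from -0.09 to -0.02 per 10 months on the log2 scale. Over all tested genes 49.0% of the differences and 49.8% of the slopes were above 0. The counts of metabotropic genes were the same with TMM factors, edgeR and DESeq2 on the same samples, and 0 of the 6 passed the test. The 6 are not independent, since Grm3, Grm5, Grm7 and Grm8 varied with the mean of long genes described below. Grm2, a presynaptic receptor that reduces glutamate release, averaged 208 ± 23.2 (n = 7), 196 ± 18.9, 181 ± 29.96, 192 ± 26.4, 198 ± 37.0 and 164 ± 21.2 (n = 5) in order of age. Its samples ran from 182 through 212 to 234 at 3 months and were 139, 172, 147, 193 and 168 at 26 months. Of these, only the sample at 193 reached into the 3-month range. The difference was -0.34 (95% interval -0.58 to -0.10, limma unadjusted p = 0.00601, adjusted p = 0.233), the lowest p of any member there. Low values were not confined to the last age. The lowest Grm2 sample of all was at 14 months, at 137, and the 8-month samples reached down to 147. At 20 months Grm2 ranged from 166 to 266, and 26 against 20 months differed by -0.26 (limma adjusted p = 0.995).

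Grm7 averaged 2225 ± 323, 2288 ± 283, 2111 ± 267, 2072 ± 379.8, 1936 ± 289 and 2037 ± 244 in order of age. Its slope was -0.09 ± 0.040 per 10 months (SE, limma unadjusted p = 0.0299, adjusted p = 0.292), and the 3- and 26-month ranges of 1900.1 to 2728 and 1808 to 2427 overlapped. Grm8, a presynaptic receptor, averaged 301, 308, 282, 281, 266 and 283 (SD 25.0 to 52.0). Grm4, another presynaptic receptor, averaged 429, 438, 411, 399.5, 384 and 379 with an SD of 54.0 to 98.4 at each age. Grm5 averaged 4249, 4521, 4364, 4299.9, 4170.1 and 4297 (SD 436.5 to 739), and its ranges of 3575 to 4904 at 3 months and 3899 to 5042 at 26 months overlapped over most of their length.

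GABA-A genes gave estimates from -0.23 to 0.25 at 26 against 3 months, 6 of 9 above 0. Gabrb2, a beta subunit that most receptors of the adult brain carry, averaged 1705 ± 299.8 (n = 7), 1904 ± 285, 1972 ± 308, 1890.1 ± 259, 1961 ± 116 and 2010.4 ± 186 (n = 5). At 3 months its samples ran from 1391 through 1580.4 to 2171, and at 26 months they were 2196, 2209, 1980.0, 1808 and 1859. The younger samples were spread more widely and reached nearly as high. The difference was 0.25 (95% interval 0.02 to 0.48, limma unadjusted p = 0.0338, adjusted p = 0.441).

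Gabra2, an alpha subunit of the forebrain linked to the calming action of benzodiazepines, averaged 1042 ± 94.3, 1085, 1054, 1062, 882 ± 109.9 and 1081 ± 130.4 from the youngest to the oldest age, with an SD of up to 170.0 at 14 months. It had the lowest p of any member in the limma F-test over ages (unadjusted p = 0.0356, adjusted p = 0.767). The 20-month samples ran from 729 through 883 to 1034, against 892, 1028 and 1153 at 3 months, and the 26-month samples were 1000.2, 1042, 1307, 1069 and 988. The 20- and 26-month ranges overlapped, and the lowest sample of all was at 14 months, at 702. The differences were -0.26 for 20 against 14 months, -0.24 for 20 against 3 and 0.29 for 26 against 20 months, with limma adjusted p of 1.00, 0.401 and 0.995. These comparisons share their 20-month samples.

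Gabra5, an alpha subunit known from extrasynaptic receptors of the hippocampus, averaged 58.7 ± 12.3, 67.8 ± 11.7, 65.2 ± 16.2, 80.1 ± 29.5, 72.4 ± 11.01 and 61.4 ± 14.3 in order of age. At 14 months it ranged from 48.4 to 142 with a median of 69.1, and its difference from 3 months was 0.39 (limma unadjusted p = 0.0217, adjusted p = 0.996). It rested on 27 to 198 reads per sample, for which counting alone gives an SD of 0.18 on the log2 scale, beside a within-age SD of 0.34. Gabrg3 averaged 582, 651, 567, 550.4, 555 and 536 (SD 78.8 to 110.3). Gabrd, whose subunit forms receptors for tonic inhibition, averaged 405, 382, 412, 380.3, 381 and 343, with an SD of 23.0 at 26 months and 35.1 to 89.4 before. Its 26-month samples were 360.1, 324, 317, 371 and 344, and its 3-month samples ran from 325 to 483. The difference was -0.23 (95% interval -0.47 to 0.02).

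The GABA-B genes gave estimates of -0.07 and -0.06. Gabbr1 averaged 7623 ± 885, 7986 ± 1591, 7971 ± 465, 7463 ± 514, 6826 ± 458 and 7245 ± 634 in order of age. Its slope was -0.07 ± 0.032 per 10 months (SE, limma unadjusted p = 0.0253, adjusted p = 0.270). The 3-month samples ran from 6784 through 7342 to 9191 and the 26-month samples were 7711, 7590.3, 7811, 6515 and 6597. Gabbr2 averaged 3050.3, 2907.5, 3108, 3032 and 3115 at the first 5 ages (SD 267 to 352), and its 26-month samples ran from 2759 to 3029.5 with a median of 2900.3.

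**Figure D3:**
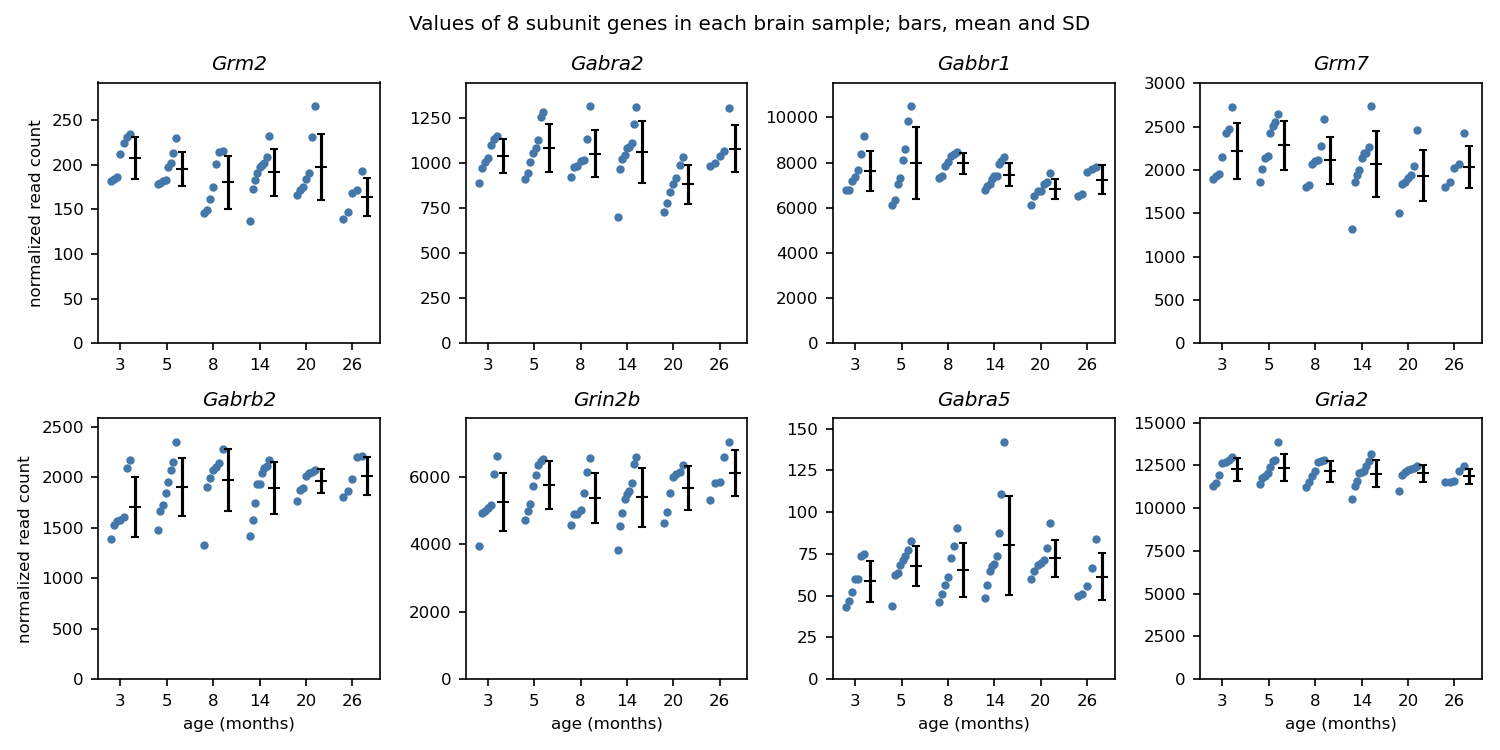
Normalized read count of 8 subunit genes in each of 43 brain samples by age in months, every axis starting at 0; points are samples and the bars beside them mean and SD. The 3- and 26-month points overlap in each panel, Grm2 at 26 months lies between 139 and 193, and Gabra2 runs from 729 to 1034 at 20 months and from 988 to 1307 at 26.

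In 1 of the alternative analyses members did pass. With the mean of 14 pan-neuronal markers as a covariate, limma called 3 of 33 members for the linear trend, all lower with age, and 2.27% of all genes. Gabrg3 had a slope of -0.17 per 10 months (limma adjusted p = 0.00518), Grm7 of -0.16 (adjusted p = 0.00315) and Grm8 of -0.13 (adjusted p = 0.0293), against -0.09, -0.09 and -0.07 without the covariate. The pan-neuronal mean itself was 11.73 ± 0.119 on the log2 scale at 3 months and 11.56 ± 0.103 at 26, and it was negatively related within age to the mean of long genes described next (r = -0.68 over 43 samples). The part of these measures in the calls was not tested.

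Partners of the receptors were examined in 5 lists. At 26 against 3 months 0 genes of these lists were called, of 13 tested for glutamate release and clearance, 8 for GABA synthesis, release and clearance, 24 AMPA and kainate receptor partners, 19 NMDA receptor and postsynaptic density scaffolds and 16 GABA receptor partners. The list medians were 0.06, -0.00, -0.13, -0.08 and -0.05 on the log2 scale, beside -0.01 for all tested genes. For the linear trend 2 of the 24 AMPA and kainate partners fell and none rose, where 0.283% of all genes fell and 1.3% rose, and 0 genes of the other 4 lists were called. Nptx2, a secreted pentraxin that gathers AMPA receptors at synapses, averaged 507 ± 75.8 (n = 7), 521, 471, 438, 345 ± 58.8 and 407 ± 89.4 (n = 5) in order of age. It fell by 0.22 ± 0.053 per 10 months (SE, limma adjusted p = 0.0143). Olfm2, an olfactomedin found in AMPA receptor complexes, averaged 841 ± 98.5, 753, 747, 728, 671 and 661 ± 90.4 in the same order, and fell by 0.13 ± 0.034 per 10 months (limma adjusted p = 0.0324).

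Other partners did not pass. In the 3 lists on transmitters and GABA receptor partners the lowest p at 26 against 3 months belonged to Slc38a3, a glutamine transporter (0.26, limma adjusted p = 0.649), Aldh5a1, an enzyme of the GABA breakdown pathway (0.32, adjusted p = 0.622), and Slc12a2, a chloride importer (0.25, adjusted p = 0.412). Dlg4, which encodes the scaffold PSD-95, averaged 4599 ± 572 at 3 and 3871 ± 401 at 26 months, a difference of -0.25 (limma adjusted p = 0.340). Dlgap3 differed by -0.26 (adjusted p = 0.241 in limma) and Cacng3, an AMPA receptor auxiliary subunit, by -0.25 (limma adjusted p = 0.221). Markers of other cells moved at the same ages. In the limma trend with age 3 of 9 microglial markers rose (C1qa, C1qb and C1qc, 0.31 to 0.36 per 10 months). So did 2 of 10 oligodendrocyte markers (Mag, 0.15, and Mobp, 0.17). Of 6 cerebellar neuron markers 1 fell (Car8, -0.24 per 10 months), while 4 of the 6 slopes were above 0 and the list median was 0.03. The summed microglial markers ranged from 1222 to 1802 at 3 months and from 1372 to 2154 at 26, and 1 of 10 was listed at 0. The summed markers of cortical and hippocampal excitatory neurons ranged from 17177 to 25144 at 3 months and from 15316 to 18141 at 26, with none at 0. Of these 10 markers 0 were called at 26 against 3 months and 0 in the trend. Nrgn, with a mean of 8318, and Slc17a7, with 4092, were the largest terms of that sum. The part of these cell markers in the partners' values was not tested.

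Samples of 1 age differed together in genes of great genomic length. Neuronal genes are known for very long introns, and the members span 13.0 kb (Grm2) to 922 kb (Grm7). The 300 longest tested protein-coding genes outside the set, each over at least 422 kb, gave a mean log2 level per sample, which averaged 8.94 to 9.04 at the 6 ages. Deviations from the age mean were then correlated over 43 samples for every tested gene, with a permutation test within ages and adjustment over all genes. The deviation of 16 of 33 members was related to that of the long genes, 15 positively and 1 negatively, where 20.6% of all tested genes were related, 9.71% positively and 10.8% negatively. This measure was chosen after the data were seen, and the shares of all tested genes are not matched to the members in length.

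Gabrg3, a GABA-A gamma subunit gene of 671 kb on chromosome 7 (56716465 to 57387188 in GRCm38), followed the long genes most closely, with r = 0.93 and rho = 0.93 (permutation p = 1e-05 for both, the smallest 100000 permutations can give, adjusted p = 0.000385 and 0.000463). Without the 2 samples farthest from the median r was 0.92. Grm7 had r = 0.88, Grik2 0.81, Grm8 0.79, Gabrb1 0.79, Gria4 0.78, Grm5 0.72 and Grm3 0.68, with permutation p = 1e-05 for each r. Grik3, of 223 kb, was negative at r = -0.51 and rho = -0.35 (permutation adjusted p = 0.00876 and 0.104), and at r = -0.39 without the 2 farthest samples. Of 14 members spanning at least 300 kb, 11 were positively related, and the median r was 0.68. Of the 19 shorter members 4 were, with a median r of 0.02. Other tested genes were not counted by span, so these counts have no background and are not read as a trait of receptor genes.

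Length did not sort all members. Grid1, at 763 kb the third longest member, had r = 0.02, and Gabbr2, at 330 kb, had r = -0.03. Grin2d, of 46.5 kb, had r = 0.54. Across the 33 members, which share the same 43 libraries, the correlation of log span with this r was 0.61. The long-gene mean moved with sequencing depth, at r = 0.60 with log2 reads in genes within age. Without the libraries under 5000000 reads 10 of 33 members were related, where 8.5% of all genes were. The part of depth in the pattern was not tested, apart from a count of 10 of 33 members related to log2 reads themselves (8.38% of all genes), which was 1 of 33 without those libraries (0.0643%). None of the 33 members was related to the mean of 6 cerebellar neuron markers, nor was any of the 15540 genes in that test (0%). Grm4 came closest, at r = 0.50 and rho = 0.44 (permutation p = 0.00208 and 0.00487, adjusted p = 0.245 and 0.241), and r was 0.38 without the 2 samples farthest from the median. How well the mean of these markers follows the cerebellar share of a sample was not tested.

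**Figure D4:**
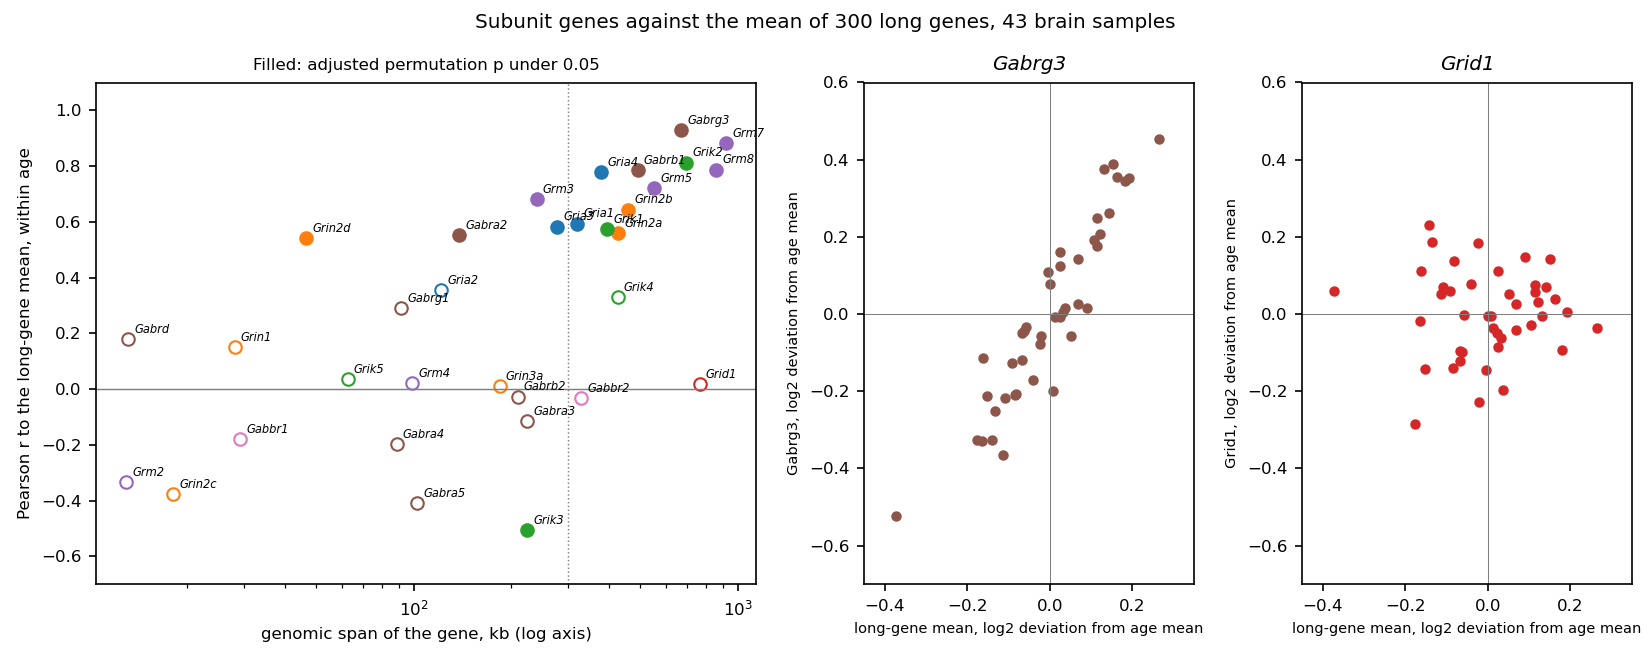
Left, Pearson r of each subunit gene with the mean of 300 long genes over 43 samples (deviations from the age mean) against the gene's span in kb on a log axis, filled where the adjusted permutation p is under 0.05, with a dotted line at 300 kb. Right, the deviations of Gabrg3 (r = 0.93) and Grid1 (r = 0.02) by sample; 11 of 14 genes past the dotted line are filled, and Grid1 is not.

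Members also varied with each other. Of the 528 pairs, 68 (12.9%) had r over 0.5 and 20 (3.79%) r under -0.5 within age, where 3.09% and 2.65% of all pairs of tested genes did. After removing the long-gene mean, 24 pairs had r over 0.5 and 18 under -0.5. The share over all pairs of tested genes was not computed after that removal, so these 2 counts have no background. The pairs tested here and in the next paragraph stand among the most extreme of the 528 r values from these same samples. Their adjusted p-values do not cover that choice of pair, so small values were likely beforehand. Gria1 and Grm5 were the closest positive pair, with r = 0.87 and rho = 0.88 (permutation p = 1e-05 for both, adjusted over 15545 genes p = 0.000313 and 0.000286). Counting either sign, 0 tested genes had a larger r in size to Gria1 than Grm5 had. For Gria1 26.5% of all tested genes passed the same test. The r of this pair was 0.84 without the 2 samples farthest from the median and 0.80 after removing the long-gene mean. Grin2b and Gabrb1 had r = 0.85 and rho = 0.83 (permutation p = 1e-05 for both, adjusted p = 0.00194 and 0.00185), where 8.48% of genes passed for Grin2b, with r = 0.80 and 0.72 in those checks and 1 gene of larger r in size. Among the closest positive pairs, those with Gabrg3 weakened most when the long-gene mean was removed. With Gabrg3, r went from 0.85 to 0.45 for Grik2, from 0.82 to 0.41 for Gabrb1 and from 0.80 to -0.14 for Grm7. Grin2a and Grm5 went from 0.79 to 0.67.

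The strongest negative pair joined the obligatory NMDA subunit and the GABA-B ligand-binding subunit. Grin1 and Gabbr1 had r = -0.84 and rho = -0.82 (permutation p = 1e-05 for both, adjusted p = 0.000194 and 0.000211), where 29.9% of tested genes passed for Grin1 and 30 genes had a larger r in size than Gabbr1. The r was -0.78 without the 2 samples farthest from the median, -0.84 after removing the long-gene mean, -0.83 after removing log2 reads and -0.81 over the 37 samples with at least 5000000 reads. It was negative in all 6 ages. Gabra4 was also opposed to Grin1, at r = -0.74 and rho = -0.77 (permutation p = 1e-05 for both, adjusted p = 0.000194 and 0.000211), and 366 genes had a larger r in size to Grin1. Of Grin1's exon bases 28.5% lie in other genes' spans, and the part of that in these relations was not tested.

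**Figure D5:**
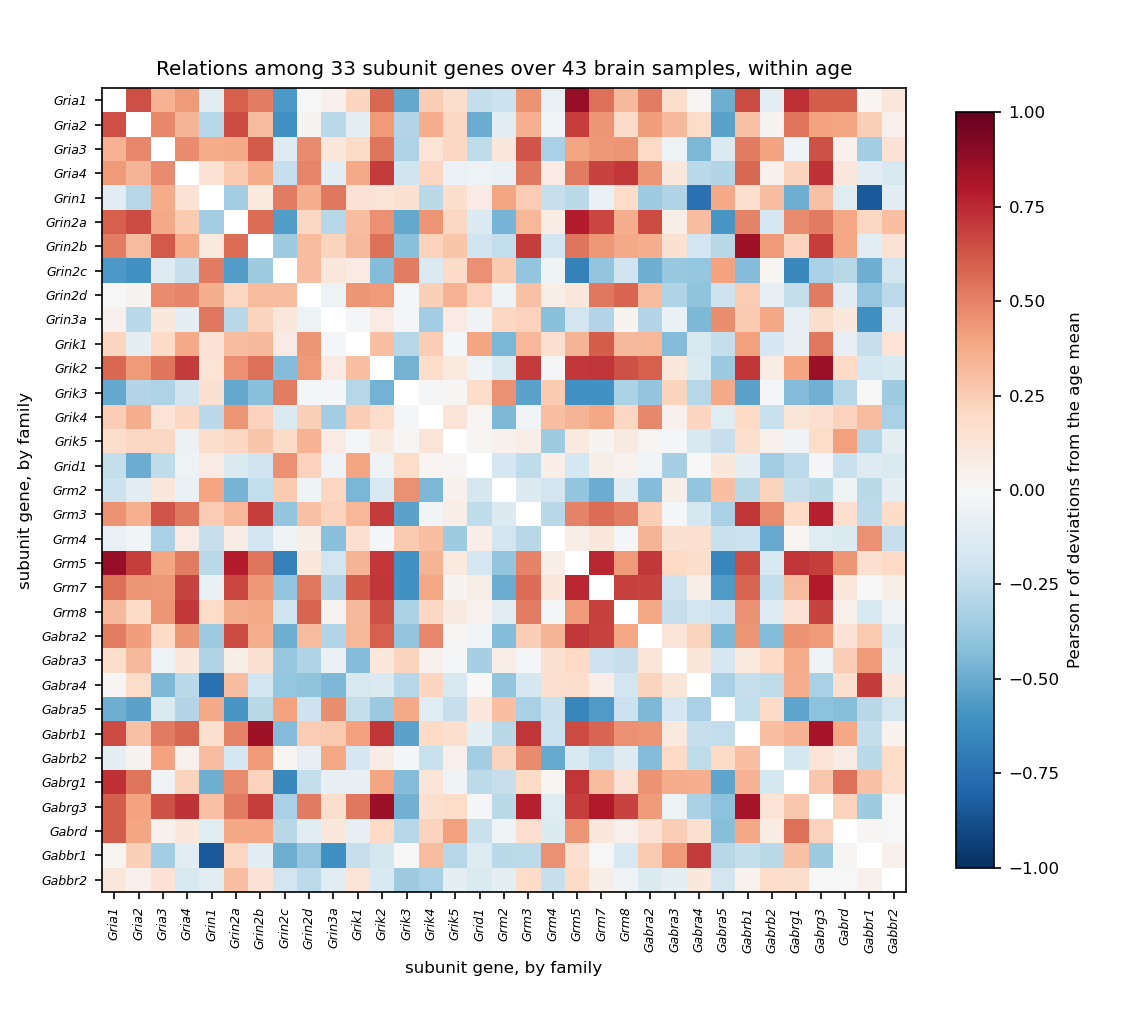
Pearson r between the deviations from the age mean of each pair of the 33 tested subunit genes over 43 brain samples, ordered by family, red positive and blue negative. Grm5, Grm7, Gabrg3, Gabrb1 and Grik2 form red bands, and the darkest blue cell joins Grin1 and Gabbr1 at -0.84.

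GABA-A genes stand in clusters on the chromosomes, and neighbours differed in how they varied together. On chromosome 5, Gabrg1 (70751047 to 70842617), Gabra2 (70957597 to 71095849), Gabra4 (71569749 to 71658308) and Gabrb1 (71658113 to 72149037) follow each other in GRCm38. Gabra4 lies on the minus strand and Gabrb1 on the plus strand, and their annotated 5' ends overlap by 196 bases, where reads of one and the other cannot be told apart unless strand was used in counting, which is not stated. Their deviations had r = -0.23 and rho = -0.24. Gabrg1 and Gabra2, 115 kb apart on the same strand, had r = 0.45 and rho = 0.56. Gabrg3 and Gabra5 on chromosome 7, 20.48 kb apart, had r = -0.41 and rho = -0.40. These r values are given as a description over the same 43 samples.

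Spleens from the ageing mice, 45 libraries normalized in a table of their own, held few reads of these genes. There 31 of the 34 genes reached 10 in at least 5 libraries and 3 averaged 100 or more. Gabbr1 averaged 504 ± 94.1, Gria3 241 ± 114 and Gabra3 193 ± 91.8 (SD, n = 45). Gabra5 at 0.27 ± 0.577 and Grm2 at 0.36 ± 0.660 were close to 0. Brain and spleen levels were not tested against each other, because the tables were normalized separately.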

How the data were processed

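Per the labels' protocols, tissue was frozen, RNA was isolated with TRI-Reagent and libraries were made from 1 µg of total RNA. Alignment tools in the submitters' processing notes are HISAT2 2.1.0 and SAMtools, after bcl2fastq 2.20 and cutadapt. The notes also list DESeq2, R 3.5.1 and GRCm38. The read counter and annotation are not given in the sources used here. The deposited signal values are read counts over a size factor for each library, computed by the authors, and whole reads were recovered for 100% of values within 0.01 of a read. limma 3.58.1 (R 4.3.3, mean-variance trend) was fitted to log2(value + 1), so fold changes of low genes are understated, with a mean per age or a slope on age. Genes needed a value of 10 in 5 samples. Adjustment was Benjamini-Hochberg over all tested genes, threshold 0.05, 2-sided. edgeR 4.0.16 and DESeq2 1.42.0 used the recovered reads. Relations used 100000 permutations within ages (Python 3.11.15), adjusted over all tested genes, where the plan had adjusted over the members. The fit and permutation test were tested on simulated data. The number of libraries limits the precision, and nothing says whether libraries came from separate batches. Each brain library carries a code of its own, which a spleen library of the same age also carries. The labels do not state that a code is an animal, so p-values measure the spread between these samples, which may be technical. The titles' ET codes are not explained in the labels and were not used. Named genes are the 8 members with the lowest p in the F-test and in the trend, the highest and lowest per kb in each family and the 4 with the largest within-age SD, and from the other lists those called or with the lowest p at 26 against 3 months. The genes and lists were chosen with earlier results of these data known. Positions and lengths are from GENCODE M21. A further spleen table of the series was not used. The result of 1 marker list is not reported here.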

Additional observations from a re-analysis of the deposited data

Results flagged for a closer look

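In 11 of 198 groups (33 genes at 6 ages) the highest or lowest sample stood far from the others by Dixon's criterion, and chance flags about 1 in 20 groups. At 26 months these were replicate 3 for Gabra2 (1307, next 1069), Gabrb1 (2892, next 2587) and Grin2c (152, next 215), replicate 1 for Grin3a (278, next 322) and replicate 4 for Grik4 (268, next 322). At 20 months Gria2 was low in replicate 4 (10990.2, next 11941) and Grik3 high in replicate 1 (828, next 631). Grm8 was low in replicate 1 at 14 months (166, next 253), Gabrb2 in replicate 5 at 8 months (1325, next 1906), Grin2d in replicate 2 at 5 months (66.8, next 90.2) and Grik4 in replicate 3 at 3 months (251, next 307).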

How the results depend on the processing

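In 25 alternative settings (other pseudocounts, no filter, TMM factors, edgeR, DESeq2, fits of 2 ages, all 45 libraries, covariates, no libraries under 5000000 reads, and leaving out each 3- and each 26-month sample) the count of members called was 0 in every comparison run, except 3 for the linear trend with the pan-neuronal marker mean as a covariate. Of 302 alternative values for the 15 member results with an unadjusted p under 0.05, none changed direction and 1 passed the threshold, Grm7 in that same fit. The 15 results were picked for their p and the settings reuse the same samples, so a change of direction was unlikely beforehand. The number of members related to the long-gene mean was 16 (20.6% of all tested genes). It was 11 without the 2 farthest samples (14.0%) and 10 without libraries under 5000000 reads (8.5%). For log2 reads it was 10 (8.38%), 4 (4.18%) and 1 (0.0643%) in the same order. The long-gene and read covariates were chosen after the data were seen. No paired analysis was possible because the labels give no replicate numbers that the ages share. Depth limits Gabra5 and Grin2d most, where counting alone gives SDs of 0.18 and 0.15 on the log2 scale.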
